A study of Homo sapiens with 24 samples.

Results

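Interferon-stimulated genes were followed across 8 groups of LNCaP cells, a hormone-sensitive human prostate cancer line, by RNA sequencing. The genes are 41 members of the interferon pathway out of 23207 gene symbols in the tables: the kinase and factors that carry the signal, the RNA sensors, the ISG15 conjugation system and the antiviral effectors. They were chosen by symbol as a known pathway, with earlier results of these data known, and all 41 were found. Every group had 3 libraries, and all cells carried a lentiviral short hairpin RNA and were kept under puromycin as stable clones. In the stripped-serum set, a SIRT1 knockdown that the labels call 10 was set against a non-targeting control hairpin (NTC, also labelled scrambled). Both lines spent 48 h in medium with fetal bovine serum (FBS), then 24 h in charcoal-stripped serum, which is low in androgens. A further 24 h followed with vehicle, with 1 nM dihydrotestosterone (DHT, an androgen), or with 1 nM DHT and 10 µM enzalutamide, an antiandrogen drug. In the FBS set, a SIRT1 knockdown labelled shSIRT1 was set against NTC in FBS medium, which holds androgens, with neither DHT nor enzalutamide added. Whether 10 and shSIRT1 share a hairpin or a clone is not stated, nor how many clones a line holds, nor whether the 3 libraries of a group are separate cultures. The p values therefore measure the spread between these libraries, and a SIRT1 effect and a difference between clones cannot be told apart.

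Interferons are secreted proteins that warn cells of viral infection. Type I interferon binds a receptor whose kinases, JAK1 and TYK2, activate STAT2. With IRF9 it forms part of a complex that binds a DNA motif, the interferon-stimulated response element (ISRE), in front of many antiviral genes. Type II interferon acts through another motif, the gamma-activated site (GAS), as in front of IRF1. Many of these genes also have a basal level without added interferon. LNCaP cells have been described as weak responders to interferon, with little JAK1. SIRT1 is a NAD-dependent deacetylase of histones and transcription factors.

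Libraries held 11.9 to 14.2 M counts in the FBS set and 25.2 to 35.1 M in the stripped-serum set. Levels are given in counts per M counts of a library (CPM), as the mean ± SD of 3 libraries where a spread is shown. Adjusted p values come from edgeR's quasi-likelihood test with Benjamini-Hochberg adjustment over all genes of a comparison, and a gene is called at an adjusted p under 0.05. SIRT1 itself had 7.15 to 8.68 CPM in the shSIRT1 libraries against 36.8 to 40.2 CPM in NTC in FBS. In stripped serum it had 12.8 to 21.6 CPM in the 9 knockdown libraries against 45.1 to 62.3 CPM in the 9 NTC libraries, with no overlap. Of the LNCaP markers, FOLH1 had 1282 to 2385 CPM and HOXB13 269.5 to 385.9 CPM over all libraries, and KLK3, an androgen-induced gene, 4.86 to 434.3 CPM. Summed leukocyte markers (8 genes) were at 1.19 to 2.30 CPM in stripped serum and 5.42 to 7.64 CPM in FBS, and TYROBP was at 0 counts in every group. Summed fibroblast markers (6 genes) overlapped between knockdown and NTC in every condition, and summed basal markers (4 genes) were at most 1.26 CPM. Summed endothelial markers (5 genes) were lower in knockdown 10 in each stripped-serum condition, at 3.28 to 4.86 CPM against 5.90 to 7.74 CPM in NTC with vehicle, 4.81 to 6.35 against 7.89 to 8.83 CPM under DHT and 2.87 to 3.90 against 5.30 to 6.24 CPM with enzalutamide. Nearly all of this sum was VWF, CDH5 had 1 count over the 24 libraries, and the part of these markers in the knockdown results was not tested. Libraries 1 and 2 of each FBS group were closer to each other than other replicates (a chi-square of 1.6 per gene for shSIRT1 and 1.55 for NTC, against 3.79 to 38.6 elsewhere), though not within sampling noise. DHT library 2 of knockdown 10 stood farthest from a replicate (38.6 against library 1), and values that move with it are also given without it.

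The sequences before the start site of 34 members were at hand (RefSeq, GRCh38.p14, 250 bases upstream and 50 downstream of each start, 300 in all; DDX58 under its newer symbol). On either strand, the ISRE letters (GAAA, any pair of bases, then GAAA again) occurred in the windows of 24 of these 34 members (70.6%), against 4.38% of the 27305 genes with a window. The GAS letters TTCNNNGAA occurred in 10 of 34 (29.4%), against 9.38% of all genes, and the palindromic androgen response element in 0 of 34, against 0.48%. A match describes letters only. The 250 upstream bases are printed, 5′ to 3′ on the strand of the gene, for 6 members that carry the results: IRF1 (chr5:132490774-132491023, minus strand), IFI44 (chr1:78649539-78649788, plus strand) and OAS1 (chr12:112906712-112906961, plus strand), which were higher in knockdown 10. OAS3 (chr12:112938224-112938473, plus strand) had the largest response to DHT, HERC5 (chr4:88456869-88457118, plus strand) was lower in knockdown 10, and IFIT1 (chr10:89392373-89392622, plus strand) was lower in shSIRT1 cells. Capitals mark GAS letters in IRF1 and OAS1 and ISRE letters, read on either strand, in the other 4. Near its end the OAS1 window also holds gaaacgaaa, where only a c parts the GAAA repeats. The ISRE letters used here need a pair of bases between them and do not match it, so OAS1 counts as a member without ISRE letters. In HERC5 the first pair of ISRE matches overlaps.
IRF1: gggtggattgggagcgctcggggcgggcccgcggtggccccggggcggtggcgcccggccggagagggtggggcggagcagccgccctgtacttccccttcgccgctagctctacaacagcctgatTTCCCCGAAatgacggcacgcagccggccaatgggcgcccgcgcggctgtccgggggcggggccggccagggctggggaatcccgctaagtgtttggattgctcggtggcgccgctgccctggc
IFI44: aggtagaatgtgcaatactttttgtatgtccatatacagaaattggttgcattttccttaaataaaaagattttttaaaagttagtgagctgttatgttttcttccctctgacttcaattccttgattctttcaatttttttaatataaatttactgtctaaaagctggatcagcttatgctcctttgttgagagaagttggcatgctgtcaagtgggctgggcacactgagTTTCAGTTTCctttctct
OAS1: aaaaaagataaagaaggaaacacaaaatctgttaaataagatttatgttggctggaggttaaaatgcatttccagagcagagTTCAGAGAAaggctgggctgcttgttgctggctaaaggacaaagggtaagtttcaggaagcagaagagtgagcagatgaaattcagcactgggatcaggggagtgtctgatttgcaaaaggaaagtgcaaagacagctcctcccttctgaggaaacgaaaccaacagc
OAS3: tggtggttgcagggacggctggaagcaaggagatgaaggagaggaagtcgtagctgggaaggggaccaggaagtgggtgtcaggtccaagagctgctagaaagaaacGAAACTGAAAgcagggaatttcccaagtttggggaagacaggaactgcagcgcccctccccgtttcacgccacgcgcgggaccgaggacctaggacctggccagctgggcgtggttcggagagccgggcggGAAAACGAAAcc
HERC5: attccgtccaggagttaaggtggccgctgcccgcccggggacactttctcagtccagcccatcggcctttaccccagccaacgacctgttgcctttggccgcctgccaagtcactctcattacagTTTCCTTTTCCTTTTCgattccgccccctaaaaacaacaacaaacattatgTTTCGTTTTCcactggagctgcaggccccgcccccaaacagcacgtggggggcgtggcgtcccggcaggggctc
IFIT1: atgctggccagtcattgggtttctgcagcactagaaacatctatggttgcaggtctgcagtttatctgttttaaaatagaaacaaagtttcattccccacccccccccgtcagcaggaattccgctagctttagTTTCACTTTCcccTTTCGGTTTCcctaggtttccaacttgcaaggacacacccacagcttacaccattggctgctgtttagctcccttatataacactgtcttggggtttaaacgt

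Without added interferon, LNCaP cells carried most of these transcripts at low to moderate levels. Of the 41 members, 14 were at 10 CPM or more in every group, 3 were under 1 CPM in every group, and 24 lay between. Per transcript length (TPM, transcripts per M), IFITM3, which blocks virus entry, was the most abundant in NTC cells with vehicle, at 234 ± 15.9 TPM. ISG15, a ubiquitin-like protein that is joined to other proteins, followed at 152 ± 3.85 TPM, and IFITM2 came next at 67.0 ± 5.38 TPM. These 3 steps are larger than the spread between libraries, while PARP9 (35.8 ± 2.05 TPM) and STAT2 (34.5 ± 3.30 TPM) did not differ beyond it. JAK1 was detected in every library, at 4.10 ± 0.572 TPM in this group. At the low end stood RSAD2 (0.697 ± 0.246 TPM), OAS2 (0.237 ± 0.0839 TPM) and MX2 (0.05 ± 0.0265 TPM). IFITM3, ISG15 and IFITM2 were also the 3 most abundant members in NTC cells in FBS, at 187, 113 and 55.0 TPM. Added over the members, the CPM in vehicle was 757.8 ± 36.5 in knockdown 10 and 708.1 ± 27.6 in NTC, and in FBS it was 613.2 ± 17.1 in shSIRT1 and 647.7 ± 23.8 in NTC.

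**Figure D1:**
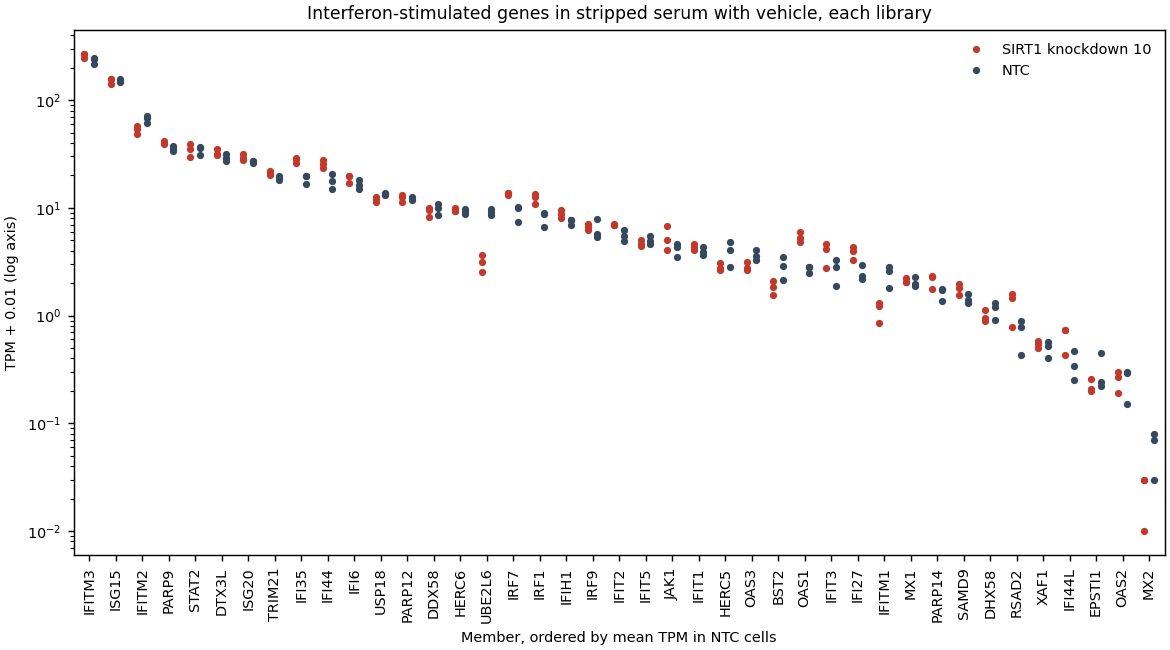
TPM of each member in stripped serum with vehicle (log axis, 0.01 added), ordered by the mean in NTC cells; each point is a library, 3 of knockdown 10 left of 3 of NTC. IFITM3 and ISG15 lie highest, and UBE2L6 is the member whose knockdown points sit farthest below NTC.

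Knockdown 10 against NTC asks how the pathway differs with SIRT1 lowered in low androgen, in DHT and under the antiandrogen. The members split: some signalling factors, OAS1, RSAD2 and several IFI genes were higher in knockdown cells, while UBE2L6, HERC5, OAS3 and IFITM1 were lower. In vehicle 9 of 40 tested members rose and 5 fell, where 34.6% of all genes were called, 15.5% higher and 19.1% lower. Under DHT 14 rose and 5 fell (43% of all genes called), and under DHT with enzalutamide 11 rose and 5 fell (34.6% of all genes called). MX2 was too low to test. The median log2 fold change of the members was 0.12, 0.15 and 0.14 in the 3 conditions, against medians within 0.01 of 0 for all genes. The members called were thus about as frequent as called genes overall in vehicle. With the replicate number as a block, the vehicle count was 22 (16 higher, 6 lower), where 45% of all genes were called with the block, the added members being DTX3L, IFIH1, IFIT3, IFITM3, JAK1, PARP14 and SAMD9 (higher) and USP18 (lower). Without vehicle library 3 of knockdown 10 it was 9, with 4025 of all genes called, against 5038 in the full fit. With enzalutamide the block added IFIH1, IFIT2, IFIT3 and JAK1 (higher) and USP18 (lower). Without DHT library 2 of knockdown 10 the count under DHT was again 19 (39.3% of all genes), with IFI6 (-0.43, adjusted p = 0.0339) and ISG15 called lower and DDX58 and HERC5 no longer called. In bulk libraries, fewer cells carrying a transcript and less of it per cell cannot be told apart. IRF1, IRF7, OAS1, IFI35, IFI44, PARP9 and RSAD2 were called higher in all 3 conditions, as were 10% of all genes. UBE2L6, HERC5, OAS3 and IFITM1 were called lower in all 3, as were 14% of all genes.

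Of the 5 signalling members, the transcription factors IRF1 and IRF7 rose and the receptor kinase JAK1, STAT2 and IRF9 did not pass the test. IRF1, which acts at ISRE-like sites downstream of type II interferon, had 22.2, 26.8 and 27.7 CPM in knockdown 10 with vehicle, against 14.4, 18.6 and 18.1 CPM in NTC. Under DHT it had 20.6, 25.1 and 26.6 CPM in knockdown 10 and 15.1, 16.9 and 18.7 CPM in NTC, and with enzalutamide 25.4, 30.6 and 28.1 CPM against 17.7, 19.1 and 19.0 CPM. Every knockdown library was above every NTC library of its condition. The log2 fold changes were 0.59 in vehicle (SE 0.107, adjusted p = 0.000349), 0.51 under DHT (adjusted p = 0.000926) and 0.60 with enzalutamide (adjusted p = 0.000293). The window of IRF1, printed above, holds GAS letters and no ISRE letters.

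IRF7, the factor that drives interferon alpha genes, had 14.2, 15.1 and 14.8 CPM in knockdown 10 with vehicle, against 8.21, 11.0 and 11.2 CPM in NTC. Under DHT the values were 10.6, 15.8 and 13.0 CPM in knockdown 10 and 8.83, 9.92 and 9.87 CPM in NTC, and with enzalutamide 15.8, 16.0 and 13.8 CPM against 9.49, 9.82 and 10.3 CPM. The groups did not overlap in any of the 3 conditions. Its log2 fold changes were 0.54 in vehicle (SE 0.121, adjusted p = 0.00209), 0.47 under DHT (adjusted p = 0.00534) and 0.63 with enzalutamide (adjusted p = 0.000642).

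JAK1 in vehicle had 12.03, 20.8 and 14.9 CPM in knockdown 10 and 10.8, 13.8 and 13.0 CPM in NTC, and these overlap. Its log2 fold change was 0.35 in vehicle (adjusted p = 0.173), 0.38 under DHT (adjusted p = 0.133) and 0.34 with enzalutamide (adjusted p = 0.190). With the replicate number as a block, JAK1 was called in vehicle (0.33, adjusted p = 0.0126) and with enzalutamide (0.31, adjusted p = 0.0198), where same-numbered libraries deviated together. STAT2 had 79.1, 107 and 94.7 CPM in knockdown 10 with vehicle and 85.9, 99.6 and 97.9 CPM in NTC, a log2 fold change of -0.01 (adjusted p = 0.961). IRF9 had 5.65, 6.06 and 6.37 CPM in knockdown 10 and 4.98, 5.15 and 7.09 CPM in NTC, and was called in no comparison.

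**Figure D2:**
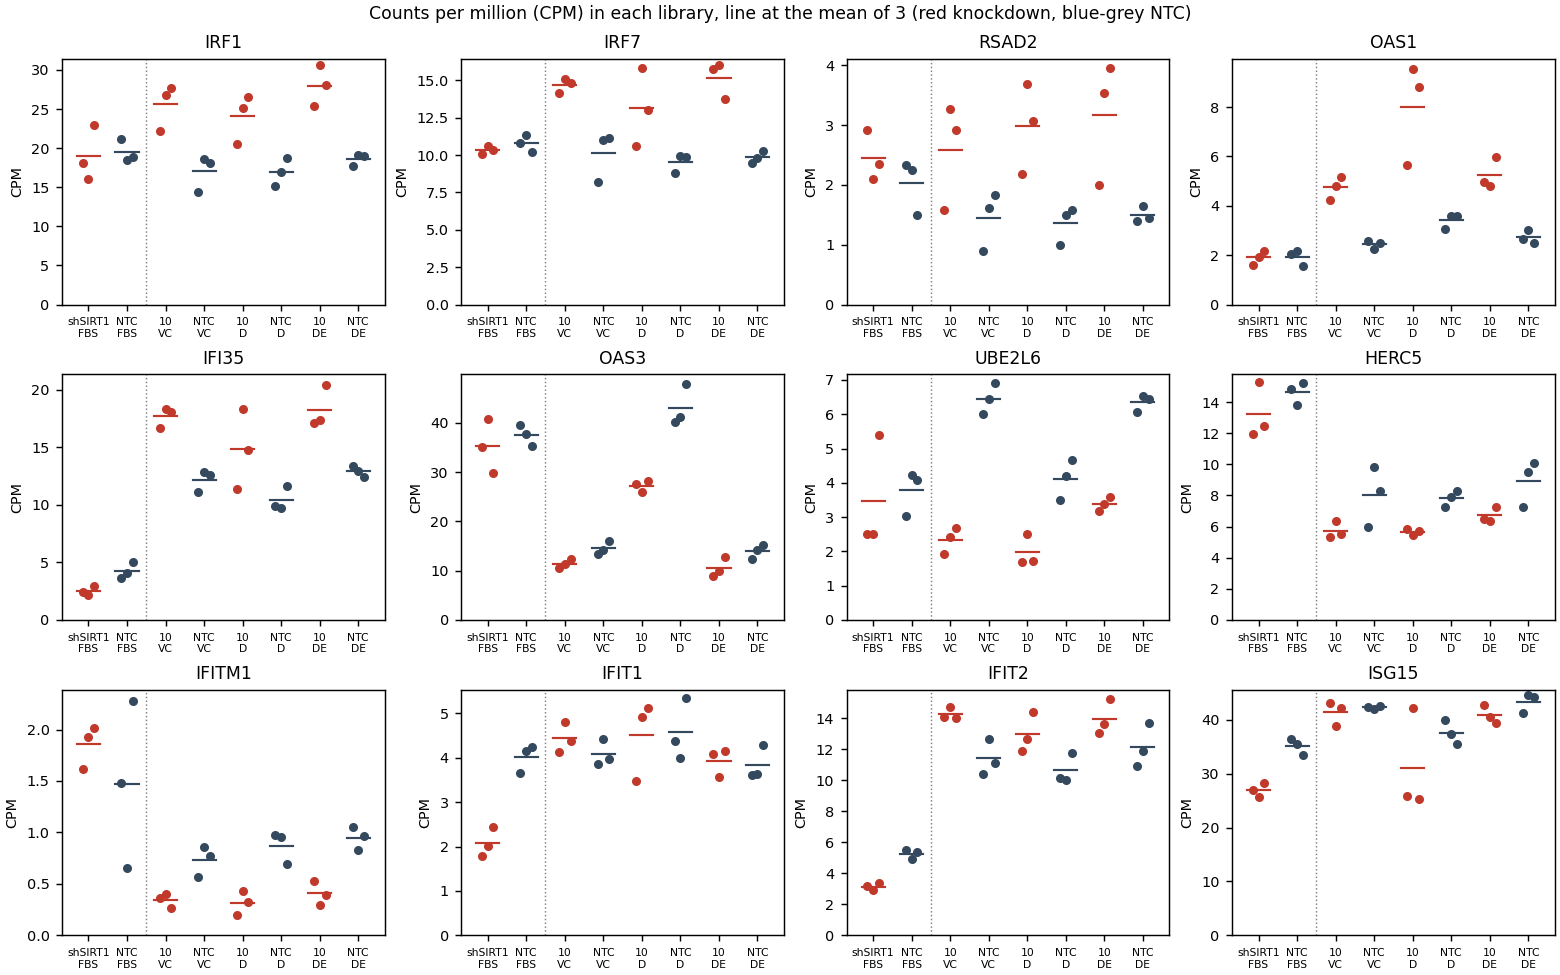
CPM of 12 members in every library (linear axis from 0), knockdown (red) left of NTC (blue-grey) in each condition, with a line at the mean of 3; VC is vehicle, D is DHT and DE is DHT with enzalutamide. The dotted line parts the FBS set from the stripped-serum set; IRF1 and OAS1 sit above NTC in knockdown 10 and UBE2L6 below it, while in FBS the knockdown and NTC points of these 3 genes overlap.

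The ISG15 conjugation system held no called rise in knockdown 10, and 2 of its 5 genes, the enzymes UBE2L6 and HERC5, fell in all 3 conditions. UBE2L6, the conjugating enzyme for ISG15, had 1.91, 2.42 and 2.69 CPM in knockdown 10 with vehicle, against 6.01, 6.43 and 6.90 CPM in NTC. Under DHT it had 1.70, 2.51 and 1.71 CPM in knockdown 10 and 3.49, 4.19 and 4.66 CPM in NTC, and with enzalutamide 3.18, 3.37 and 3.59 CPM against 6.07, 6.55 and 6.44 CPM. All 9 knockdown libraries lay below the NTC libraries of their condition. UBE2L6 was 2.75-fold lower in vehicle (log2 fold change -1.46, SE 0.148, adjusted p = 1.01e-06), 2.07-fold lower under DHT (-1.05, adjusted p = 3.89e-05) and 1.87-fold lower with enzalutamide (-0.90, adjusted p = 9.88e-05). These 3 calls held under every alternative that was run.

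HERC5, the main human ligase that joins ISG15 to proteins, had 5.35, 6.35 and 5.54 CPM in knockdown 10 with vehicle and 5.95, 9.83 and 8.29 CPM in NTC. Under DHT it had 5.83, 5.45 and 5.70 CPM in knockdown 10 and 7.28, 7.88 and 8.32 CPM in NTC, and with enzalutamide 6.51, 6.38 and 7.28 CPM against 7.24, 9.50 and 10.1 CPM. The groups overlap in vehicle and with enzalutamide and are apart under DHT. The log2 fold change was -0.47 in vehicle (adjusted p = 0.0179), -0.47 under DHT (adjusted p = 0.0170) and -0.40 with enzalutamide (adjusted p = 0.0378). Each of these calls was lost without single libraries, with adjusted p up to 0.131 in vehicle (without NTC library 2), 0.0543 under DHT (without NTC library 3) and 0.166 with enzalutamide (without NTC library 3). ISG15 itself had 43.1, 38.9 and 42.1 CPM in knockdown 10 with vehicle and 42.4, 42.1 and 42.5 CPM in NTC, and it was not called there (-0.03, adjusted p = 0.893). Under DHT, ISG15 had 25.8, 42.3 and 25.2 CPM in knockdown 10, against 39.9, 37.3 and 35.6 CPM in NTC. Libraries 1 and 3 lay below NTC and library 2 above it, so the groups overlap (-0.27, adjusted p = 0.110). Without library 2 the value was -0.56 (adjusted p = 1.23e-05). USP18, the protease that removes ISG15, fell under DHT, with 14.4, 12.1 and 13.4 CPM in knockdown 10 and 19.2, 18.5 and 15.8 CPM in NTC (-0.43).

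Among the OAS and MX genes, OAS1 and OAS3 moved in opposite directions. Both encode enzymes that make oligoadenylates, which set off RNA decay, and they are neighbours on chromosome 12. OAS1 had 4.25, 4.80 and 5.18 CPM in knockdown 10 with vehicle, against 2.59, 2.25 and 2.51 CPM in NTC. Under DHT it had 5.67, 9.54 and 8.79 CPM in knockdown 10 and 3.07, 3.58 and 3.59 CPM in NTC, and with enzalutamide 4.96, 4.79 and 5.96 CPM against 2.65, 3.02 and 2.51 CPM. No knockdown library fell within the NTC range. OAS1 was 1.94-fold higher in vehicle (log2 fold change 0.95, adjusted p = 0.000298), 2.35-fold higher under DHT (1.23, SE 0.160, adjusted p = 8.02e-06) and 1.93-fold higher with enzalutamide (0.95, adjusted p = 0.000254). These calls were kept under every alternative run.

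OAS3 had 10.6, 11.3 and 12.4 CPM in knockdown 10 with vehicle and 13.4, 14.2 and 16.1 CPM in NTC. Under DHT it had 27.5, 25.9 and 28.2 CPM in knockdown 10, against 40.1, 41.1 and 47.8 CPM in NTC, with a wide gap between the groups. It was 1.58-fold lower under DHT (log2 fold change -0.66, SE 0.103, adjusted p = 5.72e-05), and fell by 0.35 in vehicle (adjusted p = 0.0233) and 0.40 with enzalutamide (adjusted p = 0.0117) on the log2 scale. The call was lost in vehicle without 1 of 3 libraries (adjusted p = 0.125 without NTC library 3, 0.0931 and 0.0711 without knockdown libraries 1 and 2) and likewise with enzalutamide (0.063 without NTC library 3, 0.0718 and 0.0602 without knockdown libraries 1 and 2). MX1, a GTPase that blocks viruses, was not called, at 4.19, 4.14 and 3.98 CPM in knockdown 10 with vehicle and 3.79, 3.90 and 4.33 CPM in NTC.

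The interferon-induced genes IFI44, IFI35 and IFI44L were higher in knockdown 10, and IFI6 and IFI27 were not called. IFI44 had 21.8, 26.3 and 23.7 CPM in knockdown 10 with vehicle, against 14.6, 19.5 and 16.8 CPM in NTC, and its log2 fold changes were 0.50, 0.48 and 0.53 in the 3 conditions (adjusted p = 0.00323, 0.00346 and 0.00224). IFI35 had 16.7, 18.3 and 18.1 CPM in knockdown 10 with vehicle and 11.1, 12.8 and 12.6 CPM in NTC, with changes of 0.54, 0.51 and 0.51; under DHT the value was 0.34 without knockdown library 2 (adjusted p = 0.0237). IFI44 was above every NTC library in all 3 conditions and IFI35 in vehicle and with enzalutamide, while under DHT knockdown library 1 of IFI35, at 11.4 CPM, fell within the NTC range of 9.75 to 11.6 CPM. IFI44L rose in vehicle, with 1.49, 2.58 and 2.52 CPM in knockdown 10 and 1.196, 0.858 and 1.64 CPM in NTC (0.82, adjusted p = 0.00727). With enzalutamide it had 2.05, 2.02 and 2.47 CPM in knockdown 10 and 1.28, 1.30 and 1.26 CPM in NTC (0.77, adjusted p = 0.0104). Under DHT it was not called (0.28, adjusted p = 0.288), with 2.58, 2.87 and 2.46 CPM in knockdown 10 and 2.03, 2.32 and 2.17 CPM in NTC.

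RSAD2, which encodes viperin, an enzyme that makes a chain terminator of viral RNA synthesis, had low levels and a large change. It had 1.58, 3.28 and 2.92 CPM in knockdown 10 with vehicle and 0.897, 1.61 and 1.83 CPM in NTC, and these overlap. Under DHT the values were 2.18, 3.70 and 3.06 CPM in knockdown 10 and 1.001, 1.5 and 1.59 CPM in NTC, with no overlap. The log2 fold change was 0.84 in vehicle (adjusted p = 0.0413), 1.14 under DHT (adjusted p = 0.00623) and 1.09 with enzalutamide (adjusted p = 0.00897). The vehicle call was lost without any of 4 single libraries (adjusted p = 0.175 and 0.0631 without NTC libraries 1 and 2, 0.163 and 0.118 without knockdown libraries 2 and 3), and the enzalutamide call without knockdown library 3 (0.0512).

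PARP9 and DTX3L, which work as a pair in ADP-ribose and ubiquitin signalling, showed small changes at high levels. PARP9 had 76.9, 76.8 and 79.7 CPM in knockdown 10 with vehicle, against 68.5, 74.0 and 70.4 CPM in NTC. That is 1.10-fold higher (log2 fold change 0.14, SE 0.0439, adjusted p = 0.0220), a call lost without NTC library 1 (0.0767), NTC library 3 (0.0619) or knockdown library 3 (0.0684). It was 1.17-fold higher under DHT and 1.12-fold higher with enzalutamide, with no overlap between groups. Under DHT it had 81.3, 83.9 and 89.2 CPM in knockdown 10 and 68.7, 73.6 and 75.9 CPM in NTC, and with enzalutamide 82.6, 83.2 and 83.3 CPM against 72.6, 74.1 and 76.3 CPM. DTX3L rose by 0.15 on the log2 scale under DHT and with enzalutamide, calls lost without single libraries (adjusted p up to 0.229 and 0.121). PARP12 and PARP14, related ADP-ribosyltransferases, were called in no comparison without the replicate block; with it PARP14 was called higher in vehicle (0.38, adjusted p = 0.00292).

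IFITM1, a membrane protein that blocks virus entry, had 12, 12 and 8 counts (0.365, 0.397 and 0.265 CPM) in knockdown 10 with vehicle, against 17, 24 and 25 counts (0.565, 0.858 and 0.774 CPM) in NTC. The knockdown libraries were below the NTC libraries in each of the 3 conditions. The log2 fold change was -1.08 in vehicle (adjusted p = 0.00961), -1.44 under DHT (adjusted p = 0.000963) and -1.23 with enzalutamide (adjusted p = 0.00275), and in vehicle the call was lost without knockdown library 3 (0.0511). IFITM1, IFITM2 and IFITM3 are related neighbours, IFITM2 and IFITM3 the most alike, so how any shared reads were divided is uncertain. IFITM2 fell in vehicle (-0.35), with 18.04, 15.4 and 16.7 CPM in knockdown 10 and 23.3, 19.3 and 21.5 CPM in NTC, and fell with enzalutamide (-0.34). Both IFITM2 calls were lost without single libraries (adjusted p up to 0.0868 and 0.113). IFITM3 rose under DHT, with 79.3, 75.2 and 73.6 CPM in knockdown 10 and 58.1, 54.9 and 59.8 CPM in NTC (0.40, adjusted p = 0.000198).

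Other calls came in 1 or 2 of the 3 conditions. The RNA-binding IFIT2 rose in vehicle (0.33) and under DHT (0.29). ISG20, an exonuclease, rose under DHT (0.46), as did the RNA sensor DDX58, also called RIG-I (0.25), and SAMD9 (0.31). TRIM21, an intracellular antibody receptor, rose under DHT (0.29) and with enzalutamide (0.26). EPSTI1 rose with enzalutamide on few reads, 14, 5 and 10 counts in knockdown 10 against 4, 3 and 4 counts in NTC. Of these, the IFIT2, DDX58, SAMD9, TRIM21 and EPSTI1 calls were lost without single libraries, with adjusted p up to 0.240, while the ISG20 call was not. Of the 24 members with ISRE letters in their window 8 rose and 3 fell under DHT, against 4 and 1 of the 10 without such letters. The counts were 4 and 3 against 3 and 1 in vehicle, and 7 and 3 against 3 and 1 with enzalutamide. In vehicle, DHT and enzalutamide 15.5%, 19.5% and 15.4% of all genes rose and 19.1%, 23.5% and 19.2% fell. The 7 members with no window are left out, and these differences were not tested.

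**Figure D3:**
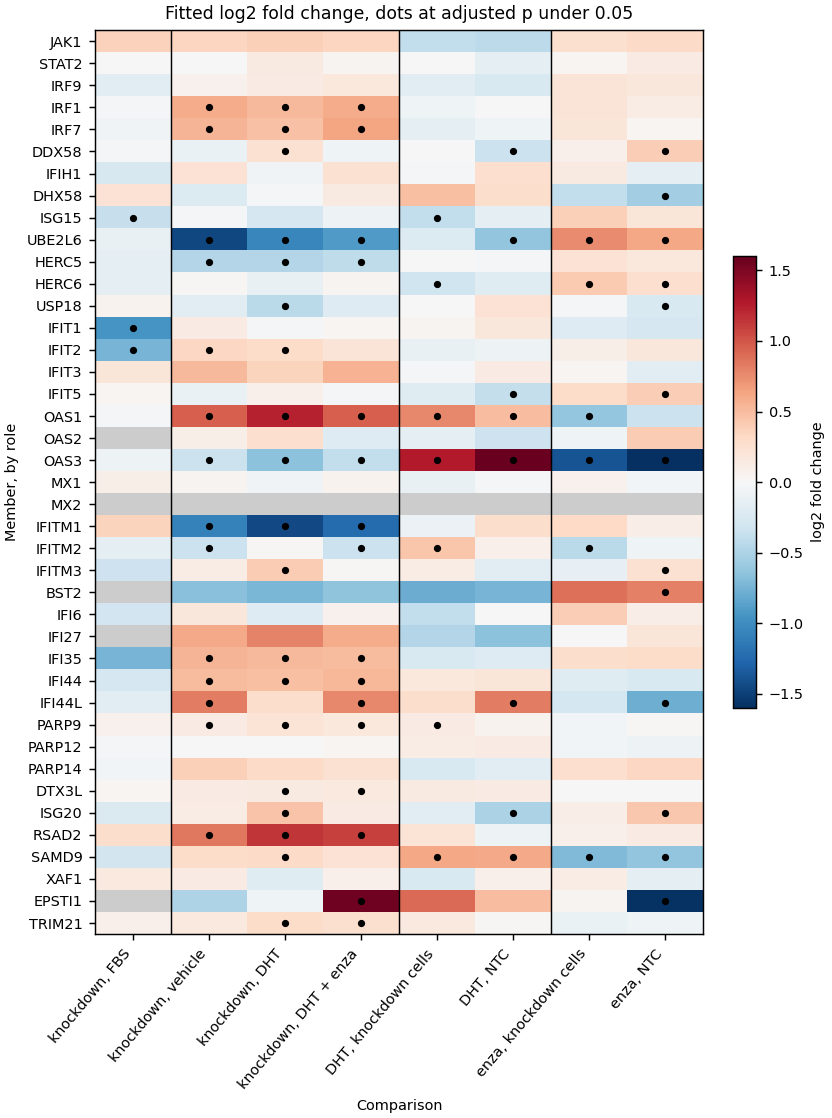
Fitted log2 fold change of each member (down the page, by role) in the 8 comparisons between 2 groups (across), red higher and blue lower in the first-named condition; a dot marks an adjusted p under 0.05 and grey marks a member too low to test. OAS1 and RSAD2 are red and UBE2L6 and IFITM1 blue in the 3 knockdown columns of stripped serum, and OAS3 changes sign between the DHT and enzalutamide columns.

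DHT against vehicle asks which members respond to androgen. OAS3 had the largest response and rose in both lines, with SAMD9 and OAS1 beside it, and few other members passed. In knockdown 10, 5 of 40 members rose and 2 fell, where 22.2% of all genes were called (13.3% higher, 8.92% lower). In NTC 4 rose and 4 fell, where 29.9% of all genes were called (17.4% higher, 12.5% lower). With the replicate block the count in NTC was 17 (8 higher, 9 lower), where 40.2% of all genes were called with the block. It added DTX3L, IFI44, IFIH1 and USP18 (higher) and BST2, HERC6, IFITM3, JAK1 and STAT2 (lower). The count was 5 without vehicle library 2 or DHT library 1 of NTC. Over all genes, leaving out single libraries gave 3088 to 3977 calls in NTC, against 4355 in the full fit. In knockdown 10 such fits gave 2269 to 3743, against 3235. The member count in knockdown 10 was 4 without vehicle library 1 and 11 without DHT library 2, where 25.5% of all genes were called. Without that library DTX3L (0.20) was called higher and IFI6 (-0.62), IFI35 (-0.43), ISG20 (-0.30) and IFI27 (-1.22, adjusted p = 0.0276) lower.

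OAS3 in knockdown 10 had 27.5, 25.9 and 28.2 CPM with DHT, against 10.6, 11.3 and 12.4 CPM with vehicle. In NTC it had 40.1, 41.1 and 47.8 CPM with DHT, against 13.4, 14.2 and 16.1 CPM with vehicle. All 6 DHT libraries lay above all 6 vehicle libraries. OAS3 was 2.40-fold higher with DHT in knockdown 10 (log2 fold change 1.27, SE 0.110, adjusted p = 3.41e-07) and 2.99-fold higher in NTC (1.58, SE 0.107, adjusted p = 1.18e-08). In the FBS set, which holds serum androgens, OAS3 had 29.9 to 40.7 CPM in shSIRT1 and 35.2 to 39.6 CPM in NTC. The upstream window of OAS3 holds ISRE letters at 2 places and no androgen element letters.

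SAMD9, which limits poxvirus growth, had 10.7, 10.3 and 12.4 CPM with DHT in knockdown 10, against 6.38, 8.17 and 7.30 CPM with vehicle. In NTC it had 9.20, 9.31 and 8.35 CPM with DHT and 5.55, 6.58 and 5.79 CPM with vehicle. The DHT libraries were above the vehicle libraries in each line, with log2 fold changes of 0.62 in knockdown 10 (adjusted p = 0.00125) and 0.60 in NTC (adjusted p = 0.0013). OAS1 rose by 0.77 in knockdown 10 (adjusted p = 0.00154) and by 0.49 in NTC (adjusted p = 0.0419), on the per-library values given above. The NTC call was lost when any of the 6 libraries was left out, with adjusted p of 0.0562 to 0.14.

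In knockdown 10, IFITM2 had 24.9, 22.2 and 20.7 CPM with DHT and 18.04, 15.4 and 16.7 CPM with vehicle, and rose (0.45, adjusted p = 0.00542). HERC6, the relative of HERC5 that is the ISG15 ligase of mice, had 18.4, 15.7 and 17.5 CPM with DHT and 22.6, 21.6 and 21.0 CPM with vehicle, and fell (-0.32, adjusted p = 0.0179). Neither gene overlapped between the groups, and the HERC6 call was lost without vehicle library 1 (0.0596) or DHT library 2 (0.0587). PARP9 rose slightly (0.14), a call lost under 8 of 11 alternatives. ISG15 had 25.8, 42.3 and 25.2 CPM with DHT in knockdown 10 against 43.1, 38.9 and 42.1 CPM with vehicle. Its fall (-0.40, adjusted p = 0.0392) was -0.70 without DHT library 2 (adjusted p = 2.24e-06), and the call was lost without DHT library 1 or 3 (0.154 each) or vehicle library 1 or 3 (0.0968 and 0.0822), and when only these groups were fitted (0.163). In NTC, where ISG15 had 39.9, 37.3 and 35.6 CPM with DHT and 42.4, 42.1 and 42.5 CPM with vehicle, it was not called (-0.15, adjusted p = 0.407). UBE2L6 fell with DHT in NTC, to 3.49, 4.19 and 4.66 CPM against 6.01, 6.43 and 6.90 CPM (-0.64, adjusted p = 0.00211). In knockdown 10 it had 1.70, 2.51 and 1.71 CPM with DHT and 1.91, 2.42 and 2.69 CPM with vehicle (-0.22, adjusted p = 0.374), and the value was -0.45 without DHT library 2 (adjusted p = 0.0547). ISG20 fell in NTC, with 8.01, 9.17 and 8.66 CPM with DHT and 12.9, 12.5 and 11.7 CPM with vehicle (-0.51, adjusted p = 0.00171). IFI44L rose in NTC, with 2.03, 2.32 and 2.17 CPM with DHT and 1.196, 0.858 and 1.64 CPM with vehicle (0.82, adjusted p = 0.00857; 0.0536 without vehicle library 2). DDX58 (-0.34) and IFIT5, an RNA-binding relative of IFIT1 (-0.39), fell there, and both calls were lost without vehicle library 2 or DHT library 1 (0.0547 to 0.0651). With the replicate block JAK1 was called lower with DHT in NTC (-0.43, adjusted p = 0.00348).

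Enzalutamide added to DHT asks which members respond when the antiandrogen is present. OAS3 and SAMD9 fell in both lines and UBE2L6 and HERC6 rose in both. This comparison uses the same DHT libraries as the one before, so the values of the pair of comparisons are not independent. In knockdown 10, 2 of 40 members rose and 4 fell, where 20.3% of all genes were called (8.08% higher, 12.2% lower). In NTC 7 rose and 6 fell, where 29.2% of all genes were called (12.6% higher, 16.6% lower). The count with the replicate block was 13 in knockdown 10 (7 higher, 6 lower; 31% of all genes), with IFI35, IFIT5, IRF1, ISG15 and PARP14 (higher) and IFI44 and IFITM3 (lower) added. Without DHT library 2 it was 11 (24.6% of all genes), with BST2 (1.16), ISG15 (0.67), IFI6 (0.62), IFI35 (0.48) and IRF7 (0.36) called higher. In NTC the block added IFI35, JAK1, PARP14 and STAT2 (higher) and IFI44 (lower). The NTC count was 8 without DHT library 1 or without library 1 of DHT with enzalutamide. Over all genes, leaving out single libraries gave 3064 to 3879 calls in NTC, against 4250 in the full fit.

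OAS3 had 8.86, 10.0 and 12.8 CPM with DHT and enzalutamide in knockdown 10, against 27.5, 25.9 and 28.2 CPM with DHT alone. In NTC it had 12.4, 14.3 and 15.2 CPM with both, against 40.1, 41.1 and 47.8 CPM with DHT alone. The groups were far apart in each line, 2.60-fold lower in knockdown 10 (log2 fold change -1.38, adjusted p = 1.23e-07) and 3.12-fold lower in NTC (-1.64, adjusted p = 4.33e-09). SAMD9 had 5.34, 7.47 and 7.74 CPM with both drugs in knockdown 10 and 5.497, 6.12 and 6.02 CPM in NTC, below every DHT library given above (-0.71 and -0.63). UBE2L6 rose to 3.18, 3.37 and 3.59 CPM in knockdown 10, against 1.70, 2.51 and 1.71 CPM with DHT alone (0.76, adjusted p = 0.00253). It rose to 6.07, 6.55 and 6.44 CPM in NTC, against 3.49, 4.19 and 4.66 CPM with DHT alone (0.61, adjusted p = 0.00279). With both drugs, no UBE2L6 library overlapped the DHT libraries of its line.

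OAS1 fell with enzalutamide in knockdown 10 (-0.62, adjusted p = 0.00786), although library 3 with enzalutamide, at 5.96 CPM, lay above DHT library 1, at 5.67 CPM, and the call was lost when only these groups were fitted (0.0628). In NTC, OAS1 was not called (-0.34, adjusted p = 0.147). IFITM2 fell in knockdown 10, with 19.6, 15.1 and 16.1 CPM with enzalutamide and 24.9, 22.2 and 20.7 CPM with DHT alone (-0.43, adjusted p = 0.00775). The groups did not overlap, and the call was lost without DHT library 1 (0.0595) or enzalutamide library 2 (0.0611). HERC6 rose in knockdown 10, with 25.9, 21.7 and 22.3 CPM with enzalutamide and 18.4, 15.7 and 17.5 CPM with DHT alone (0.42, adjusted p = 0.0034), and in NTC (0.26, adjusted p = 0.0376; lost without DHT library 2 or 3 or without library 1 with enzalutamide, up to 0.187). In NTC, IFI44L fell with enzalutamide (-0.78, adjusted p = 0.011), to 1.28, 1.30 and 1.26 CPM against 2.03, 2.32 and 2.17 CPM. DHX58 (LGP2, a regulator of the RNA sensors) had 1.11, 1.26 and 1.82 CPM with enzalutamide and 1.88, 2.22 and 2.04 CPM with DHT alone in NTC (-0.56), without overlap. DHX58, USP18 (-0.24) and EPSTI1 (-1.58) were called lower there, and each call was lost without single libraries (adjusted p up to 0.172, 0.224 and 0.0759). ISG20 rose in NTC (0.44, adjusted p = 0.00532), with 10.9, 13.6 and 11.0 CPM against 8.01, 9.17 and 8.66 CPM, as did DDX58 (0.40), IFIT5 (0.39) and IFITM3 (0.25). The IFIT5 and IFITM3 calls were each lost without single libraries (adjusted p up to 0.071 and 0.0676). BST2, known as tetherin, rose in NTC on low counts (0.81), a call lost by DESeq2 (adjusted p = 0.0541) and without any of 4 single libraries (up to 0.212).

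**Figure D4:**
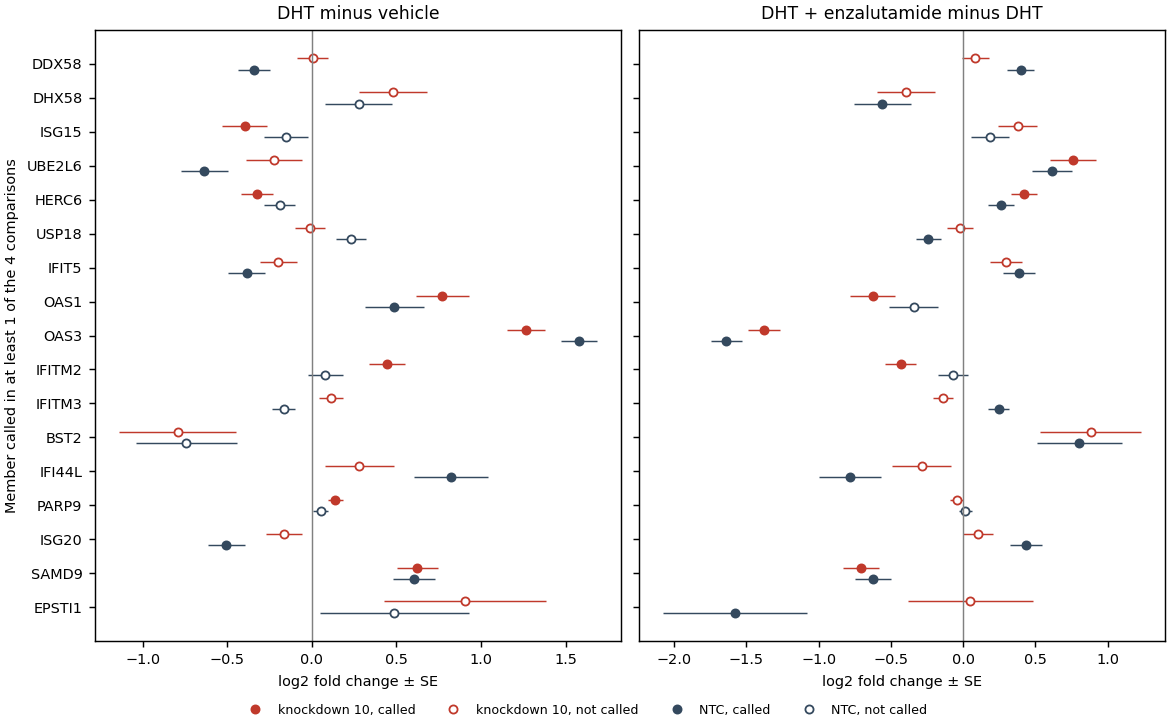
Log2 fold change ± SE of the members called in at least 1 of 4 comparisons, for DHT minus vehicle (left) and DHT with enzalutamide minus DHT (right); red is knockdown 10, blue-grey is NTC, filled points are called. OAS3 lies at 1.27 and 1.58 on the left and at -1.38 and -1.64 on the right; both panels use the same DHT libraries.

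Whether these responses differ between the lines was tested by interaction. With edgeR, 0 of 40 members had a DHT response that differed between knockdown 10 and NTC, where 0.199% of all genes were called. An unadjusted p under 0.05 was reached by 4 members and by 1598 of all 14558 genes. DESeq2 called 0 members and 161 of all genes. For enzalutamide 0 members were called (0.35% of all genes were, 0.268% higher and 0.0824% lower). An unadjusted p under 0.05 was reached by 5 members and by 1728 of all 14558 genes. DESeq2 called 1 member, IFITM3 (-0.38, adjusted p = 0.0367), and 243 of all genes. With the replicate block 2 members were called for DHT, DDX58 (0.35, adjusted p = 0.0414) and IFITM3 (0.28, adjusted p = 0.0289), where 2.93% of all genes were called. For enzalutamide the block called 3, where 3.94% of all genes were called. These were DDX58 (-0.32, adjusted p = 0.0488), IFITM2 (-0.36, adjusted p = 0.0482) and IFITM3 (-0.38, adjusted p = 0.00447). The OAS3 responses of 1.27 in knockdown 10 and 1.58 in NTC were therefore not shown to differ. ISG15 was called in both interactions when DHT library 2 of knockdown 10 was left out, at -0.54 for DHT (adjusted p = 0.0163) and 0.49 for enzalutamide (adjusted p = 0.0201).

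In FBS, shSIRT1 against NTC asks which genes differ where serum androgens are present. Few members did, and those that did were lower: IFIT1, IFIT2 and ISG15. Of 36 tested members 0 rose and 3 fell, where 2.71% of all genes were called (0.509% higher, 2.21% lower). The members' median log2 fold change was -0.05. Under the replicate block 5 fell, where 11.7% of all genes were called, IFI35 (-0.75, adjusted p = 0.0289) and IFITM3 (-0.33, adjusted p = 0.00282) being added. In FBS the replicate number is not shown to be a pairing, since libraries 1 and 2 of different number deviated together about as much as same-numbered ones. The count was 0 without NTC library 1 or 2 or without shSIRT1 library 1 or 2. It was also 0 when libraries 1 and 2 of each group were summed into 1. Over all genes, leaving out single libraries gave 102 to 926 calls and the summed libraries 44, against 389 in the full fit.

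IFIT1, which binds viral RNA lacking host cap methylation, had 1.78, 2.01 and 2.44 CPM in shSIRT1 and 3.66, 4.15 and 4.25 CPM in NTC. IFIT2, its neighbour and partner, had 3.16, 2.90 and 3.36 CPM in shSIRT1 and 5.49, 4.95 and 5.35 CPM in NTC. ISG15 had 27.0, 25.7 and 28.2 CPM in shSIRT1 and 36.5, 35.4 and 33.4 CPM in NTC. For all 3 genes every shSIRT1 library was below every NTC library. IFIT1 was 1.92-fold lower (log2 fold change -0.94, SE 0.198, adjusted p = 0.0412), IFIT2 1.67-fold lower (-0.74, SE 0.160, adjusted p = 0.0457) and ISG15 1.30-fold lower (-0.38, SE 0.0731, adjusted p = 0.0311). The DESeq2 count was 1, where 488 of all genes were called. Without single libraries of the 6 the adjusted p reached 0.172 for IFIT1, 0.199 for IFIT2 and 0.158 for ISG15. IRF1, at 18.1, 16.0 and 23.0 CPM in shSIRT1 and 21.1, 18.5 and 18.9 CPM in NTC, was not called (-0.03, adjusted p = 0.934). JAK1 had 8.82, 9.17 and 9.42 CPM in shSIRT1 and 6.41, 6.11 and 8.81 CPM in NTC (0.37, adjusted p = 0.273), without overlap. STAT2 had 64.0, 64.8 and 71.6 CPM in shSIRT1 and 64.2, 64.8 and 71.7 CPM in NTC.

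The knockdown changes of the 2 sets were set against each other in 1 fit of 12 libraries, as the change in vehicle minus the change in FBS. For 12 of 40 members they differed, 11 with the higher value in vehicle and 1, UBE2L6, with the lower, where 13.8% of all genes differed (7.48% higher, 6.28% lower). Serum and depth differ between the sets. The median gap between a gene's length and the effective length deposited with its counts differs as well. It was 50 bases in every FBS library and 224 to 252 bases in the stripped-serum libraries. Hairpin, clone or sequencing run may differ too, so that the parts of all these cannot be told apart. The largest differences were IFI35 at 1.33 (adjusted p = 0.000558), UBE2L6 at -1.30 (adjusted p = 0.0226), IFIT1 at 1.11 (adjusted p = 0.00409), IFIT2 at 1.11 (adjusted p = 0.00059) and OAS1 at 1.01 (adjusted p = 0.019). IFIT1 had 4.13, 4.80 and 4.38 CPM in knockdown 10 and 3.85, 4.43 and 3.96 CPM in NTC with vehicle, overlapping, where shSIRT1 was below NTC in FBS. IFIT2 had 14.1, 14.7 and 14.0 CPM in knockdown 10 and 10.4, 12.7 and 11.1 CPM in NTC with vehicle. IFI35 had 2.43, 2.17 and 2.94 CPM in shSIRT1 and 3.66, 4.07 and 5.04 CPM in NTC in FBS, opposite in direction to its rise in knockdown 10, though not called in FBS. OAS1 had 1.62, 1.93 and 2.19 CPM in shSIRT1 and 2.04, 2.18 and 1.57 CPM in NTC in FBS, which overlap. UBE2L6 in FBS had 2.51, 2.49 and 5.38 CPM in shSIRT1 and 3.03, 4.22 and 4.09 CPM in NTC, with shSIRT1 library 3 above all NTC libraries. The UBE2L6 call was lost without that library (0.0533), without NTC library 1 in FBS (0.0609) or without NTC library 3 with vehicle (0.0527), and the OAS1 call without 3 single FBS libraries (0.055 to 0.0646). The count of 12 was 7 without library 1 of either FBS group. Over all genes, leaving out single libraries gave 1454 to 2425 calls, against 2112 in the full fit.

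**Figure D5:**
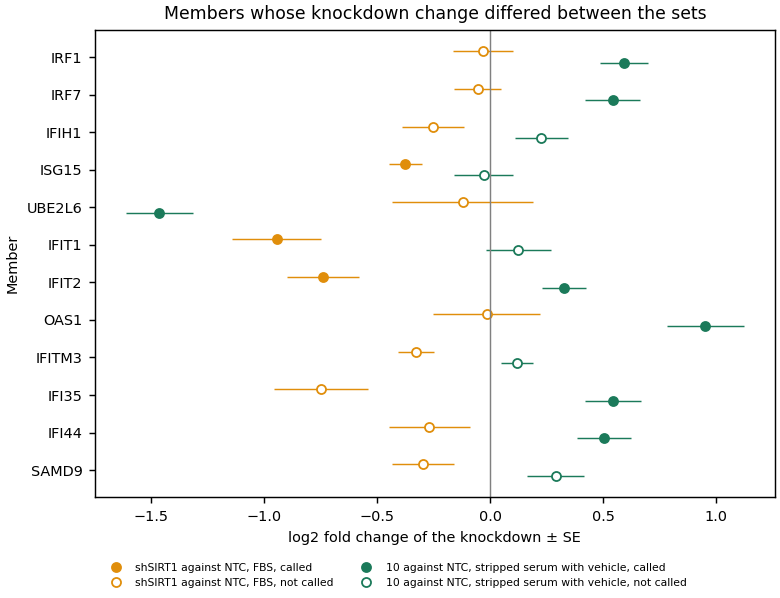
Log2 fold change ± SE of the knockdown for the 12 members whose change differed between the sets, shSIRT1 against NTC in FBS (orange) and 10 against NTC in vehicle (green); filled points are called. UBE2L6 lies at -1.46 in vehicle and -0.12 in FBS, and IFI35 at 0.54 and -0.75.

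Over all 11 comparisons, 29 members were called at least once and 12 never: JAK1, STAT2 and IRF9 of the signalling chain, IFIT3, OAS2, MX1, MX2, IFI6, IFI27, PARP12, PARP14 and XAF1. The same count over all genes was not made. In the stripped-serum comparisons other than the interactions, 20.3% to 43% of all genes were called each time. The 29 therefore cannot be read as a trait of these members. With the replicate block JAK1, STAT2, IFIT3 and PARP14 were called in at least 1 comparison where same-numbered libraries deviated together, and without DHT library 2 of knockdown 10 IFI6 and IFI27 were called. Among the 12, MX2 (0 to 0.168 CPM over the libraries) was never tested, and OAS2 and IFI27 were tested in stripped serum only. XAF1, which opposes an inhibitor of apoptosis, had 28.2, 31.7 and 30.1 CPM in shSIRT1 and 27.3, 24.7 and 29.2 CPM in NTC, a difference that was not called.

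The rest of the pathway was read from a list of 58 genes, of which 54 were in the tables. The 7 ligand genes found did not pass the count filter. IFNB1 had 11 counts over the 24 libraries and at most 3 in a group. IFNA1, IFNA2, IFNE, IFNK, IFNG and IL6 had 0 counts in all 24 libraries, which allows up to 0.00485 CPM each (3 counts of the total, counting error only). Of 45 tested genes, 16 rose and 4 fell in knockdown 10 with vehicle, 20 and 9 under DHT, and 18 and 3 with enzalutamide. These are 44.4%, 64.4% and 46.7% of those tested, against 34.6%, 43% and 34.6% of all genes, while 0 of 41 were called in FBS (7 at an unadjusted p under 0.05; 2.71% of all genes were called). The share called differed between the lists pooled here. In vehicle, under DHT and with enzalutamide it was 20%, 73.3% and 33.3% for receptors, kinases and STAT factors. It was 43.8%, 50% and 37.5% for sensing and induction genes, and 71.4% each time for class I presentation genes. The type II receptor chain IFNGR1 rose in all 3 stripped-serum conditions (log2 fold changes 0.39, 0.34 and 0.40). IKBKE, a kinase that activates IRF3 and IRF7, fell in all 3 (-0.44, -0.39 and -0.49). Of 14 class I presentation genes, 10, 9 and 10 rose and 0, 1 and 0 fell, with TAPBP at 0.53, 0.63 and 0.44 and PSMB9 at 1.501, 1.46 and 1.28. JAK2, the kinase of the type II receptor, fell with DHT in knockdown 10 (-0.44) and NTC (-0.42) and rose when enzalutamide was added (0.38 and 0.44).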

How the data were processed

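Poly(A) RNA was sequenced as 1 stranded library per sample on a HiSeq 3000, from TRIzol extracts, per the labels' protocols. The authors deposited expected counts and TPM per gene symbol for each library. The submitters' processing notes name CASAVA 1.8.2, RSEM 1.2.31 and hg19, while the aligner, annotation version and strand setting are not given in the sources used here. TPM, deposited by the authors, served only to compare levels between genes. Expected counts deposited by the authors were rounded and tested with edgeR 4.0.16 (R 4.3.3; filterByExpr, TMM, quasi-likelihood F test) in 6 FBS libraries (14329 genes, 36 members), 18 stripped-serum libraries (14558 genes, 40 members) or, for the change in vehicle minus that in FBS, 12 libraries (15345 genes, 40 members). P values were adjusted over all genes by Benjamini-Hochberg. CPM is the rounded count over the library total. Scripts were tested on simulated counts.

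The members and lists were chosen with earlier results of these data known. Per-library values are given for JAK1, STAT2, IRF9, IRF1 and ISG15, for the 6 largest called changes of each comparison among members with a mean log2 CPM of at least 0, and for members called in all 3 stripped-serum knockdown comparisons; others were named freely. Alternatives were DESeq2 size factors, DESeq2 1.42.0, no count filter, a replicate block, fits of only the groups compared, each library left out, and FBS libraries 1 and 2 summed. Same-numbered libraries deviated together (every pair's correlation over 0.1) in FBS (0.143 to 0.349), vehicle (0.123 to 0.356), DHT with enzalutamide (0.114 to 0.266), DHT in NTC (0.105 to 0.341) and enzalutamide in knockdown 10 (0.166 to 0.275) and NTC (0.112 to 0.361). They did not in the knockdown under DHT (0.078 to 0.297) or DHT in knockdown 10 (0.047 to 0.345). Some pairs of different number reached similar values. In FBS, NTC library 2 with shSIRT1 library 1 had 0.146. In NTC, DHT library 2 with library 3 of DHT with enzalutamide had 0.126. Others were negative, as NTC library 1 with shSIRT1 library 3 in FBS (-0.213). In FBS the replicate number is thus not shown to be a pairing. In stripped serum, libraries numbered 1 deviated together in every pair of groups (0.188 to 0.402), and those numbered 2 or 3 less (0.00428 to 0.292). For the knockdown in vehicle, pairs of different number reached at most 0.0814. What same-numbered libraries share is not stated, and the main test does not use the number. This limits calls made only with the block. Some genes of the pathway list and 1 LNCaP marker are not reported here by name.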

Additional observations from a re-analysis of the deposited data

Results flagged for a closer look

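The knockdown change differed between vehicle and FBS for 12 members by the test of the difference itself (edgeR's quasi-likelihood test, log2 change in vehicle minus log2 change in FBS). IFI35 (1.333), IFIT1 (1.110), IFIT2 (1.107), OAS1 (1.009) and IFI44 (0.811, adjusted p = 0.0193) had the highest values. IRF1 (0.666, adjusted p = 0.0257), IRF7 (0.638, adjusted p = 0.0144), SAMD9 (0.631, adjusted p = 0.0317), IFIH1, the RNA sensor also called MDA5 (0.521, adjusted p = 0.0497), IFITM3 (0.488, adjusted p = 0.00895) and ISG15 (0.390, adjusted p = 0.0120) followed. UBE2L6 (-1.297) had the only lower value among the 12. The IFIH1 call was lost under 11 of 16 alternatives, SAMD9 under 9 and IRF1 under 6.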

How the results depend on the processing

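Of 98 member calls over the 11 comparisons, 53 held under every alternative run, and 0 changed sign. Leaving out 1 library at a time gave 0 to 3 members called in FBS, 9 to 16 in vehicle, 14 to 19 under DHT and 11 to 16 with enzalutamide for the knockdown. It gave 4 to 11 and 5 to 8 for DHT in knockdown 10 and NTC, 5 to 11 and 8 to 10 for enzalutamide, 0 to 1 for each interaction, and 7 to 13 for the vehicle minus FBS difference. With the replicate block the counts were 5 in FBS, 22 in vehicle, 17 for DHT in NTC, 13 for enzalutamide in knockdown 10, and 2 and 3 for the DHT and enzalutamide interactions. DESeq2 called 1 member in FBS and 1 for the enzalutamide interaction, and summing FBS libraries 1 and 2 left 0. Over all genes, 389 calls in FBS became 1676 with the block, 44 with libraries summed and 102 to 926 without single libraries. Leaving out single libraries gave 4025 to 4622 for the knockdown in vehicle, against 5038 in the full fit. Under DHT it gave 5260 to 6376 against 6265, and with enzalutamide 3897 to 4462 against 5034. Such fits gave 2269 to 3743 calls for DHT in knockdown 10 and 3088 to 3977 in NTC. For enzalutamide they gave 2069 to 3625 and 3064 to 3879, and for the vehicle minus FBS difference 1454 to 2425. DHT in knockdown 10 called 3235 genes, and 1651 with only its groups fitted. Enzalutamide in knockdown 10 called 2951, against 4518 with the block and 1550 with only its groups. The DHT interaction called 29, against 161 by DESeq2, 427 with the block and 5 to 90 without single libraries, and the enzalutamide interaction called 51, against 243, 573 and 16 to 176. Members under 1 CPM rest on few counts. The cause of these changes was not tested.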

Other observations

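Levels of some members also differed between the FBS and stripped-serum sets, and these levels were not tested against each other. The sets differ in serum, depth and effective length, and possibly in clone or run. CPM ranges of the 18 stripped-serum libraries and the 6 FBS libraries did not overlap for 13 of 41 members, 10 higher in stripped serum and 3 higher in FBS. The same count over all genes was not made, so these 13 cannot be read as a trait of the members. XAF1 had 0.644 to 1.35 CPM in stripped serum and 24.7 to 31.7 CPM in FBS. IFIT2 had 9.99 to 15.2 CPM in stripped serum and 2.90 to 5.49 CPM in FBS, and IFI35 had 9.75 to 20.4 CPM and 2.17 to 5.04 CPM. HERC5 and USP18 were the other members higher in FBS, at 5.35 to 10.1 CPM and 12.1 to 19.2 CPM in stripped serum, against 11.98 to 15.3 CPM and 19.6 to 25.9 CPM.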
